A study of Mus musculus with 18 samples.

Results

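The adult globin rows of the count table are those named Hbb-b1, Beta-s, Hbq1b, Hbq1a, Hba-a1 and Hba-a2, 6 of the 23365 rows, chosen by name: every row named as an adult beta, alpha or theta globin gene was taken, and the embryonic Hbb-bh1 was left out. Of these, 4 had enough counts to be among the 13405 genes tested. The libraries came from erythroblasts, the immature red cells, sorted from mouse spleen by the surface proteins CD71 and TER119. The mice carried combinations of 3 alleles of Klf1, the gene of an erythroid zinc finger transcription factor: wild type (WT), a knockout (KO) and D45, which stands for MommeD45 and which the series title places among missense changes in linker-2 of the protein. There were 4 libraries of D45/KO, the compound heterozygous genotype that the series design ties to red cell destruction and a large spleen, 3 of D45/D45, 3 of WT/D45, 5 of WT/KO and 3 of WT/WT. The knockout was sequenced with a D45 or a WT allele beside it and never alone. Each library carries the number of a different mouse, and the sources used here give no strain, age or sex of the mice.

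Adult haemoglobin joins alpha and beta globin chains around haem, and maturing red cells make more of these chains than of any other protein. KLF1 is known as an activator of adult beta globin in mice, where it binds CACCC boxes in the promoter and helps the distant locus control region to reach the gene. Theta globin is a relative of alpha globin whose part in haemoglobin is not established. Mouse strains differ in their adult beta genes: the single haplotype carries Hbb-bs and Hbb-bt, and the diffuse haplotype carries Hbb-b1 and Hbb-b2.

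The promoters are shown because the CACCC box is the element by which KLF1 is known to act on the beta genes, and because the copies within each globin pair resemble each other. The 4 sequences below are the 150 bases before the gene start on the coding strand, from RefSeq on build GRCm38.p6, which is later than the mm9 build of the counts, with each CACCC in capitals. Hbb-bs lies at chr7:103827929-103828078 and Hbb-bt at chr7:103813924-103814073, both on the minus strand. Hbq1b lies at chr11:32286814-32286963 and Hbq1a at chr11:32299919-32300068, both on the plus strand.
Hbb-bs: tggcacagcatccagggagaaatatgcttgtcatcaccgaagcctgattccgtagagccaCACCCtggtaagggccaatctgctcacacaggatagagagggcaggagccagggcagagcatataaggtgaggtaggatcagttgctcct
Hbb-bt: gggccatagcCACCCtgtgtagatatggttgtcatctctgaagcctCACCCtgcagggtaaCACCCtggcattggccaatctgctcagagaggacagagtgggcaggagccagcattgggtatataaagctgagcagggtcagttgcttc
Hbq1b: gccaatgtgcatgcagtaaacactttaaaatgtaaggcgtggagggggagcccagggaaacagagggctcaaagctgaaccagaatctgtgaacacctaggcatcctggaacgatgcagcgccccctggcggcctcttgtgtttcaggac
Hbq1a: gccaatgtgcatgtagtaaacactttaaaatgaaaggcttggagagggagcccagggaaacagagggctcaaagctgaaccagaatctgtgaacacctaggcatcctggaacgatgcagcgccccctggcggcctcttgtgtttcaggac

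Motifs were searched on both strands of the RefSeq promoter windows, which run from 250 bases before to 50 bases after each start. The Hbb-bs window held 1 CACCC, starting 90 bases before the gene, within the longer box CCACACCC that starts 93 bases before it. The Hbb-bt window held 3 CACCC, starting 140, 104 and 89 bases before the gene, and no CCACACCC. Both beta windows held the looser pattern CCNCNCCC (N is any base), starting 93 bases before Hbb-bs and 107 bases before Hbb-bt. The 2 theta windows held no CACCC. Each alpha window held 2 CACCC, starting 167 and 60 bases before Hba-a1 and 170 and 63 bases before Hba-a2. Among 32544 promoter windows, 57.7% held CACCC, 49.7% held CCNCNCCC and 3.57% held CCACACCC. The short motif and the looser pattern are thus common and the long box is not. The windows of Hbb-bs and Hbb-bt were identical at 72.7% of aligned positions and those of Hbq1b and Hbq1a at 95.3%. A match describes the letters only, and no binding was measured in these data.

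The names of the beta rows limit what can be said of each gene. RefSeq lists Beta-s as an older symbol of Hbb-bs. It places Hbb-bs and Hbb-bt side by side on chromosome 7 and lists Hbb-b1 outside that array, and no row of the table is named Hbb-bt, Beta-t or Hbb-b2. No source used here gives the gene model that the Hbb-b1 row counted, so the rows are called by their own names below. Of the 75-base stretches in the annotated transcripts of Hbb-bs, 51.5% also occur in Hbb-bt, so the counting of reads from the beta genes may have divided or dropped some of them.

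Between them the 2 beta rows held nearly all globin counts. Beta-s took more counts than any other row in 16 of 18 libraries, and Hbb-b1 did so in WT/D45 replicate 2. In WT/KO replicate 3 the row of most counts was Rn45s, the ribosomal RNA precursor, with 11.5% of all counts. The theta rows held between 430 and 8259 counts (Hbq1b) and between 26 and 910 counts (Hbq1a) in a library. The alpha rows held almost none: Hba-a1 had 0 to 16 counts and Hba-a2 0 to 3 counts, with 0 in 3 and 14 of the 18 libraries. The alpha pair shares 67.9% (Hba-a1) and 84.6% (Hba-a2) of its 75-base stretches with the other copy, and both rows were below the filter and are not compared. The globin share given here is therefore a share of beta and theta counts, with alpha globin almost unmeasured.

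The sort was checked against erythroid genes before the globins were compared. Tfrc, which encodes CD71, ran from 711 to 4641 CPM (counts per 1000000 counts, on library sizes adjusted by TMM) over all 18 libraries. Klf1 averaged 576 ± 209 CPM in D45/KO, 1227 ± 457 in D45/D45, 982 ± 386 in WT/D45, 415 ± 311 in WT/KO and 821 ± 322 in WT/WT (SD, n = 4, 3, 3, 5 and 3), and it was called in none of the comparisons. RNA of another cell type was present as well: Cd79a, which encodes a signalling chain beside the B cell antigen receptor, was at 22.0 to 219 CPM in 9 libraries and at 0 to 2.22 CPM in the other 9. All 5 genotypes had libraries of both kinds. The 7 libraries whose mouse number is under 200 are all in the first class. Total counts ran from 9.36 to 56.3 M (M stands for 1000000), with the 2 shallowest libraries, WT/KO replicate 3 and D45/KO replicate 3, at 9.36 and 10.5 M.

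The share of all counts taken by the globin rows was lowest on average in D45/KO and highest in WT/WT, with ranges that overlapped. It was 10.5, 15.8, 10.1 and 14.1% in the 4 D45/KO libraries, 9.46, 26.9 and 32.5% in D45/D45, 10.1, 35.8 and 18.7% in WT/D45, 10.7, 19.2, 6.28, 36.6 and 18.9% in WT/KO, and 9.93, 37.8 and 47.2% in WT/WT. The 4 D45/KO libraries stayed within a narrow band, whereas each other genotype had a library at 10.1% or less and a library at 32.5% or more. Means were 12.6 ± 2.77% in D45/KO, 22.9 ± 12% in D45/D45, 21.5 ± 13.1% in WT/D45, 18.3 ± 11.6% in WT/KO and 31.6 ± 19.4% in WT/WT (SD, n = 4, 3, 3, 5 and 3). The widest 95% Wilson interval of a library's share reached 0.0236 percentage points to each side, which covers counting error only. In bulk samples fewer globin-rich cells and less globin RNA per cell cannot be told apart.

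**Figure D1:**
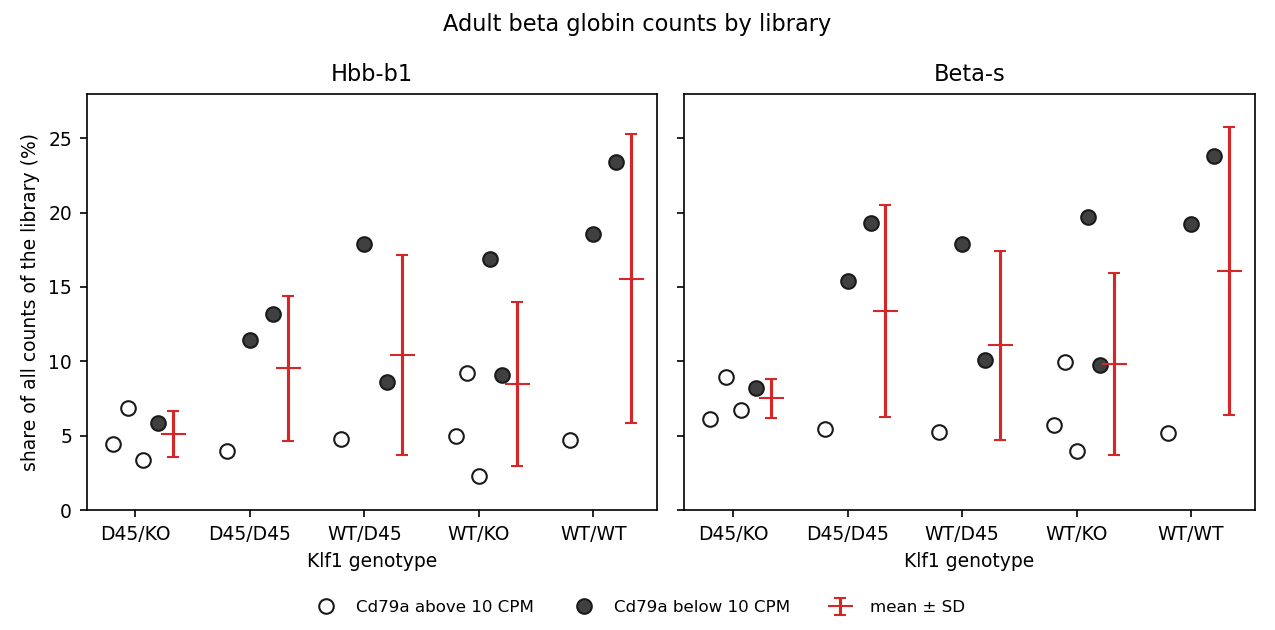
Share of all counts of a library (%) for the rows Hbb-b1 (left panel) and Beta-s (right panel) in each Klf1 genotype, with 1 point per library, open for libraries with Cd79a above 10 CPM and filled for those below, and the mean ± SD in red. The D45/KO libraries lie between 3.37 and 6.84% for Hbb-b1 and between 6.11 and 8.97% for Beta-s, and the highest WT/WT library is at 23.4 and 23.8%.

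The 2 beta rows moved together across libraries. Hbb-b1 took 4.42, 6.84, 3.37 and 5.87% of counts in D45/KO, 3.98, 11.4 and 13.2% in D45/D45, 4.81, 17.9 and 8.63% in WT/D45, 4.99, 9.20, 2.28, 16.9 and 9.10% in WT/KO, and 4.71, 18.6 and 23.4% in WT/WT. Beta-s took 6.11, 8.97, 6.73 and 8.18% in D45/KO, 5.47, 15.4 and 19.3% in D45/D45, 5.26, 17.9 and 10.1% in WT/D45, 5.70, 9.94, 3.99, 19.7 and 9.78% in WT/KO, and 5.21, 19.2 and 23.8% in WT/WT. The same libraries were low in both rows, among them replicate 1 of every genotype. Over the 18 libraries the log2 CPM of the 2 rows had a Pearson correlation of 0.99, given as a description, since the rows share libraries, depth and possibly reads.

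The globin share was lower, on the whole, in the class of libraries with more Cd79a. The 9 libraries with Cd79a above 10 CPM had globin shares of 6.28 to 19.2%, and the 9 below it had 14.1 to 47.2%. Within the first class the shares were 10.1 to 15.8% in D45/KO (n = 3), 9.46% in D45/D45, 10.1% in WT/D45, 6.28 to 19.2% in WT/KO (n = 3) and 9.93% in WT/WT, with 1 library where no n is given, so the genotypes lay together. Within the second class they were 14.1% in D45/KO (1 library), 26.9 and 32.5% in D45/D45, 18.7 and 35.8% in WT/D45, 18.9 and 36.6% in WT/KO, and 37.8 and 47.2% in WT/WT. There the single D45/KO library was the lowest and both WT/WT libraries were the highest, with 1 or 2 libraries a genotype. The summed level of the 13 B cell markers ran from 39.4 to 2237 CPM in D45/KO, 68.2 to 1672 in D45/D45, 30.5 to 2737 in WT/D45, 45 to 4479 in WT/KO and 131 to 2384 in WT/WT, and no marker sum was at 0. Cd79a itself was uneven within the first class. It was at 22.0 to 85.2 CPM in D45/KO and 195 to 219 CPM in WT/KO. The single libraries of D45/D45, WT/D45 and WT/WT were at 80.6, 136 and 97.9 CPM. The part of B cell RNA in the globin share was not tested.

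**Figure D2:**
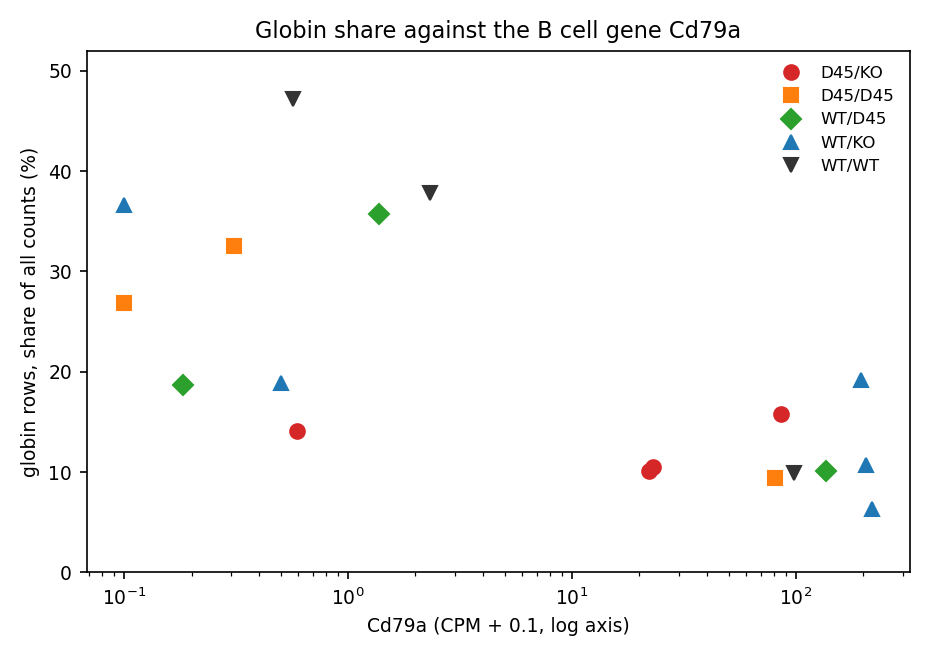
Share of all counts held by the globin rows (%) against Cd79a (CPM + 0.1, log axis), with 1 point per library and a symbol and colour per Klf1 genotype. The 9 libraries to the right, above 10 CPM, reach at most 19.2%, and those to the left spread from 14.1 to 47.2%.

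Within a class, the level of Cd79a and the globin measures were not tied past the correction for multiple tests. Of 12 relations over 9 libraries each, the smallest p was that of Hbq1b in the class above 10 CPM, with a Spearman rho of -0.83 (permutation p = 0.00847, Benjamini-Hochberg adjusted 0.102) and a Pearson r of -0.66 (permutation p = 0.053, adjusted 0.62), which was -0.70 without the 2 libraries farthest from the median. For the globin share itself r was 0.12 in the class above 10 CPM (permutation p = 0.78, adjusted 0.851), with rho -0.05 (permutation p = 0.912, adjusted 0.973), and r was -0.042 without the 2 farthest libraries. In the class below 10 CPM r was 0.31 (permutation p = 0.425, adjusted 0.851), with rho 0.23 (permutation p = 0.556, adjusted 0.834), and r was -0.076 without the 2 farthest libraries.

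The comparison at the centre of the series is D45/KO against WT/KO, which asks what the D45 allele does when the other allele is absent. None of the 4 tested globin rows was called there by edgeR's quasi-likelihood test at an adjusted p under 0.05, where 0.172% of all genes tested were called. Hbb-b1 averaged 43655 ± 15900.4 CPM in D45/KO libraries and 106498 ± 126624 CPM in WT/KO libraries, with a log2 fold change of -1.29 ± 3.00 (SE, edgeR adjusted p = 0.960). Beta-s averaged 64330 ± 18478 CPM in D45/KO libraries and 122846 ± 147208 CPM in WT/KO libraries (log2 fold change -0.93 ± 3.16, edgeR adjusted p = 0.976). The SD in WT/KO is larger than the mean, and its libraries ran from 13994 to 322422 CPM of Hbb-b1. For Hbq1b the log2 fold change was -0.24 ± 0.74 and for Hbq1a -0.91 ± 0.89 (edgeR adjusted p = 0.973 and 0.927). The CPM of the 2 genotypes overlapped for all 4 rows, and 2.71% of all genes did not overlap. The sign of this comparison differed between the Cd79a classes: Beta-s had -1.50 ± 0.96 among libraries below 10 CPM and 0.61 ± 0.71 among those above (edgeR adjusted p = 1 and 0.636), with 1 D45/KO library below 10 CPM, so that the spread there comes from the other genotypes alone. Among the libraries above 10 CPM, Cd79a itself was at 22.0 to 85.2 CPM in D45/KO and 195 to 219 CPM in WT/KO. The difference between the classes was not tested.

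Against WT/WT, every tested globin row had a lower mean CPM in D45/KO, and none was called, where 0.619% of all genes were. Among the libraries above 10 CPM of Cd79a, which hold 3 of the 4 D45/KO libraries and 1 WT/WT library, the direction was the opposite, with log2 fold changes of 0.51 for Hbb-b1, 0.96 for Beta-s, 0.88 for Hbq1b and 0.88 for Hbq1a (edgeR adjusted p = 1 for each). Hbb-b1 averaged 43655 ± 15900.4 CPM in D45/KO libraries and 323430 ± 307314 CPM in WT/WT libraries (log2 fold change -2.89 ± 3.41, edgeR adjusted p = 0.979). As a plain share of counts the gap of Hbb-b1 was smaller, at 5.12 ± 1.54% in D45/KO and 15.6 ± 9.70% in WT/WT (SD). Beta-s had a log2 fold change of -2.37 ± 3.58 (edgeR adjusted p = 0.999). Hbq1a averaged 8.69 ± 3.83 CPM in D45/KO libraries and 36.8 ± 42.5 CPM in WT/WT libraries. Its unadjusted p was the smallest among the globin rows (log2 fold change -2.08 ± 1.0, edgeR adjusted p = 0.575), and the log2 fold change was -0.55 without WT/WT replicate 3. Among the libraries below 10 CPM of Cd79a it was -2.40 ± 0.63 (edgeR adjusted p = 0.0461), where 2.35% of all genes were called, with a single D45/KO library that is assumed to vary like the other genotypes. With all libraries Hbq1b had -1.15 ± 0.84 (edgeR adjusted p = 0.824). As a plain share of counts Hbq1b was nearly level, at 0.0147 ± 0.0029% in D45/KO and 0.0152 ± 0.0045% in WT/WT (SD). Its fold change thus depends on the TMM scaling. None of the 4 rows was free of overlap between the 2 genotypes, and 10.2% of all genes were. Against D45/D45, where 0.00746% of all genes were called and 4.77% did not overlap, the log2 fold changes of D45/KO were -1.72 ± 3.31 for Hbb-b1, -1.66 ± 3.53 for Beta-s, -1.01 ± 0.84 for Hbq1b and -1.37 ± 0.99 for Hbq1a (edgeR adjusted p = 1 for each), again with overlapping CPM.

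The other genotypes were compared with WT/WT in the same fit, and no gene of the whole table was called in any of these comparisons (0%). In D45/D45 the log2 fold changes were -1.17 ± 3.58 for Hbb-b1, -0.71 ± 3.79 for Beta-s, -0.14 ± 0.90 for Hbq1b and -0.71 ± 1.07 for Hbq1a (edgeR adjusted p = 1 for each). In WT/D45 they were -1.18 ± 3.58, -1.16 ± 3.82, -0.30 ± 0.90 and -1.40 ± 1.09 for the same rows in that order (edgeR adjusted p = 1 for each). In WT/KO they were -1.60 ± 3.09, -1.43 ± 3.31, -0.91 ± 0.79 and -1.17 ± 0.93 (edgeR adjusted p = 0.861, 0.886, 0.818 and 0.818). The groups overlapped in all 12 cases, while 11%, 4.04% and 1.61% of all genes did not overlap in D45/D45, WT/D45 and WT/KO against WT/WT. In the authors' deposited table, which gives WT/WT over WT/KO and so has the opposite sign, the log2 fold changes were 1.58 for Hbb-b1, 1.34 for Beta-s, 1.28 for Hbq1b and 0.17 for Hbq1a, with adjusted p of 0.853, 0.853, 0.853 and 0.965 in that table.

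With all 18 libraries and TMM scaling, the 24 log2 fold changes of the 4 rows in the 6 comparisons were below 0. This direction differed between the Cd79a classes. Among the 9 libraries below 10 CPM of Cd79a all 24 were below 0. Among the 9 above it, 19 were above 0, including all 12 of D45/KO against WT/KO, D45/D45 and WT/WT. In that class Cd79a was lower in D45/KO, at 22.0 to 85.2 CPM, than in WT/KO at 195 to 219 and WT/WT at 97.9. The D45/D45 library stood at 80.6 CPM. Genotype and Cd79a level are thus not separated there. The 6 comparisons share libraries, so the signs are not independent of each other. None of the 24 had an unadjusted edgeR p under 0.05. DESeq2, which called 0 to 3.23% of all genes in these comparisons, and limma-voom, which called 0 to 0.559%, also called 0 of the 24, and limma-voom with library weights called 2: Hbb-b1 in D45/KO against WT/WT, where it called 5.35% of all genes, and Hbq1b in WT/KO against WT/WT, where it called 8.65%. The SE of the beta rows was smaller by DESeq2 and limma-voom than by edgeR. In D45/KO against WT/WT, Hbb-b1 had -2.92 ± 0.97 by DESeq2 (adjusted p = 0.0695) and -2.18 ± 1.26 by limma-voom (adjusted p = 0.630). The edgeR value was -2.89 ± 3.41. The median over all tested genes was between -0.15 and 0.26 in the 6 edgeR comparisons, beside -2.22 to -0.71 for the median of the 4 globin rows. The difference between the D45 effect beside a KO allele and beside a WT allele was -0.11 ± 4.58 for Hbb-b1 and 0.22 ± 4.88 for Beta-s (edgeR adjusted p = 1 for each), where 0.00746% of all genes were called.

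**Figure D3:**
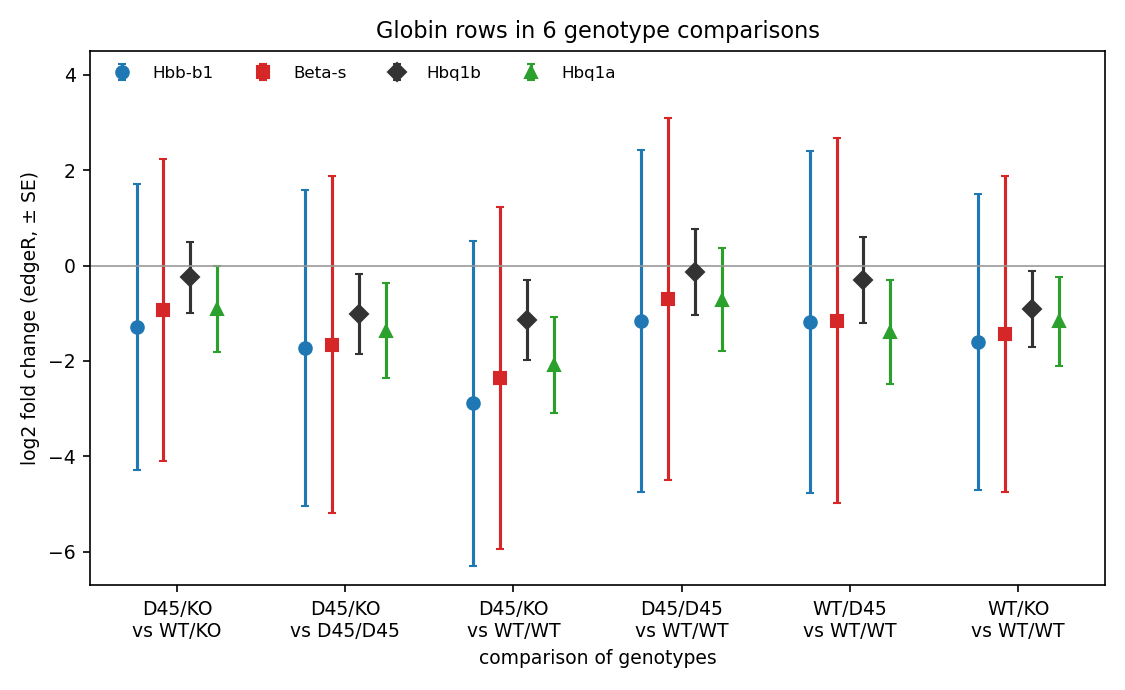
Log2 fold change ± SE from edgeR (vertical axis) of 4 globin rows in the 6 comparisons of genotypes (horizontal axis). With all 18 libraries the 24 points lie below 0, whereas 19 of the 24 values lie above 0 among the libraries with Cd79a above 10 CPM, and the SE of Hbb-b1 and Beta-s reaches across 0 in each comparison.

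Scaling each library to 24 late erythroid genes, in place of the TMM factors, narrowed the error of the beta rows and left their signs in the 6 comparisons. It also moved the median log2 fold change of all tested genes, to -0.81 in D45/KO against WT/KO and -0.0096 in D45/KO against WT/WT, beside -0.15 and 0.073 with TMM. On this scale Hbb-b1 had a log2 fold change of -1.0 ± 0.44 in D45/KO against WT/KO and of -1.78 ± 0.49 in D45/KO against WT/WT (edgeR adjusted p = 0.768 and 0.276), and Beta-s had -0.69 ± 0.37 and -1.29 ± 0.42 (edgeR adjusted p = 0.768 and 0.544). Relative to the median of all genes, Hbb-b1 was at -0.19 and -1.77 and Beta-s at 0.12 and -1.28 in these comparisons. The log2 CPM of Hbb-b1 above the mean log2 CPM of the same 24 genes was 4.52, 5.03, 3.76 and 4.48 in D45/KO, 4.33, 5.49 and 5.71 in D45/D45, 5.04, 6.27 and 5.10 in WT/D45, 5.28, 6.03, 4.12, 6.19 and 5.10 in WT/KO, and 4.94, 6.42 and 6.90 in WT/WT. The D45/KO values lie toward the low end, and the groups overlap: 5.03 in D45/KO replicate 2 is above 4.94 in WT/WT replicate 1.

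The ratio of the 2 beta rows was higher in every library without a WT Klf1 allele than in 10 of the 11 libraries that carry a WT allele. It is a ratio of counts, not corrected for length, so only its change between libraries is read. Beta-s divided by Hbb-b1 was 1.38, 1.31, 2.0 and 1.39 in D45/KO, 1.37, 1.35 and 1.46 in D45/D45, 1.09, 0.999 and 1.17 in WT/D45, 1.14, 1.08, 1.75, 1.17 and 1.07 in WT/KO, and 1.11, 1.03 and 1.02 in WT/WT. The 7 libraries without a WT allele lay between 1.31 and 2.0. Of the 11 libraries with a WT allele, 10 lay at or below 1.17, and WT/KO replicate 3 stood at 1.75. This grouping by WT allele was noticed after the values were seen and is given without a test.

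**Figure D4:**
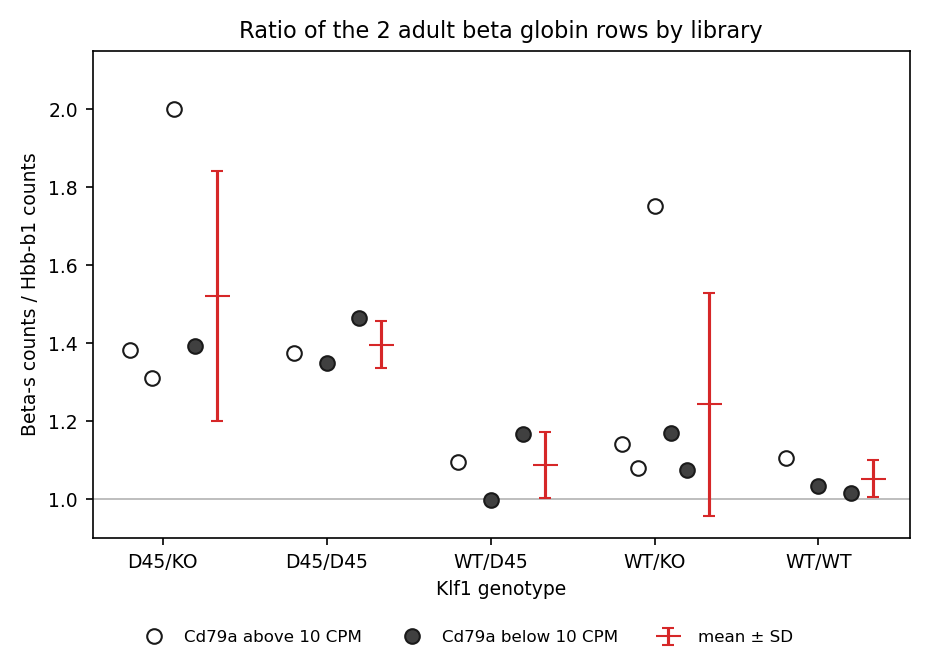
Ratio of Beta-s counts to Hbb-b1 counts (vertical axis) in each library, by Klf1 genotype, open for libraries with Cd79a above 10 CPM and filled for those below, with the mean ± SD in red. D45/KO and D45/D45 libraries lie at 1.31 and above, and those with a WT allele at 1.17 and below apart from WT/KO replicate 3 at 1.75.

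The tests of the ratio could not reach 0.05 in the comparisons where the groups were apart. In D45/KO the mean ratio was 1.52 ± 0.321, against 1.05 ± 0.0477 in WT/WT (SD, n = 4 and 3), and in D45/D45 it was 1.40 ± 0.0599 (SD, n = 3). On the log2 scale D45/KO was 0.51 above WT/WT (two-sided exact permutation p = 0.0571, the smallest that 4 against 3 allows) and D45/D45 was 0.41 above WT/WT (exact permutation p = 0.1, the smallest that 3 against 3 allows). Both comparisons had no overlap, and both had a Benjamini-Hochberg adjusted p of 0.257 over 12 ratio tests by exact permutation. D45/KO was 0.30 above WT/KO (exact permutation p = 0.222, adjusted 0.444, smallest possible 0.0159). Without WT/KO replicate 3 this was 0.43 (exact permutation p = 0.0286, not adjusted). That p is the smallest possible there, since the library left out is the only WT/KO library that overlaps with D45/KO. D45/KO and D45/D45 differed by 0.10 (exact permutation p = 0.857), WT/D45 and WT/WT by 0.044 (exact permutation p = 0.7) and WT/KO and WT/WT by 0.21 (exact permutation p = 0.107), where WT/KO averaged 1.24 ± 0.287 and WT/D45 1.09 ± 0.0845 (SD, n = 5 and 3).

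The ratio was not lower or higher throughout a Cd79a class. Above 10 CPM of Cd79a it was 1.31 to 2.0 in D45/KO, 1.37 in D45/D45, 1.09 in WT/D45, 1.08 to 1.75 in WT/KO and 1.11 in WT/WT. Below 10 CPM it was 1.39 in D45/KO, 1.35 and 1.46 in D45/D45, 0.999 and 1.17 in WT/D45, 1.07 and 1.17 in WT/KO, and 1.02 and 1.03 in WT/WT. In both classes the D45/D45 libraries and all D45/KO libraries were above the WT/D45 and WT/WT libraries. The libraries at 2.0 and 1.75 are the 2 shallowest, at 10.5 and 9.36 M counts, and Rn45s took 1.47% and 11.5% of their counts, beside 0.0487 to 1.14% in the other libraries. The part of depth or RNA quality in these 2 ratios was not tested, and the other D45/KO libraries stood at 1.31 to 1.39. Without both shallow libraries, a choice made after seeing the data, D45/KO was 0.37 above WT/WT and 0.29 above WT/KO on the log2 scale (exact permutation p = 0.1 and 0.0571, each the smallest possible).

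The theta rows were compared by level and ratio as well. Hbq1b was at 89.8, 122, 105 and 191 CPM in D45/KO, 83.9, 336 and 345 in D45/D45, 64.5, 382 and 239 in WT/D45, 41.1, 81.3, 28.2, 352 and 247 in WT/KO, and 55.4, 270 and 520 in WT/WT. Hbq1a was at 5.16, 13.6, 6.18 and 9.84 CPM in D45/KO, 3.55, 25.9 and 38.0 in D45/D45, 3.78, 21.2 and 17.0 in WT/D45, 5.21, 11.5, 1.70, 41.2 and 22.4 in WT/KO, and 4.37, 21.2 and 85.0 in WT/WT. The libraries with Cd79a above 10 CPM were the lower ones of each genotype, apart from Hbq1a in D45/KO replicate 2 at 13.6 CPM. Within that class the 3 D45/KO libraries, at 89.8 to 122 CPM of Hbq1b, were above the other 6, at 28.2 to 83.9 CPM, as were those of 7.73% of all genes. Cd79a itself was at 23.0, 85.2 and 22.0 CPM in these D45/KO libraries and at 80.6 to 219 CPM in the other 6. Genotype and Cd79a level are thus not separated in that class, and the part of B cell RNA in these Hbq1b values was not tested. The log2 fold change of Hbq1b in that class was 1.12 ± 0.37 in D45/KO against WT/KO (edgeR adjusted p = 0.0932), where 7.55% of all genes were called.

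**Figure D5:**
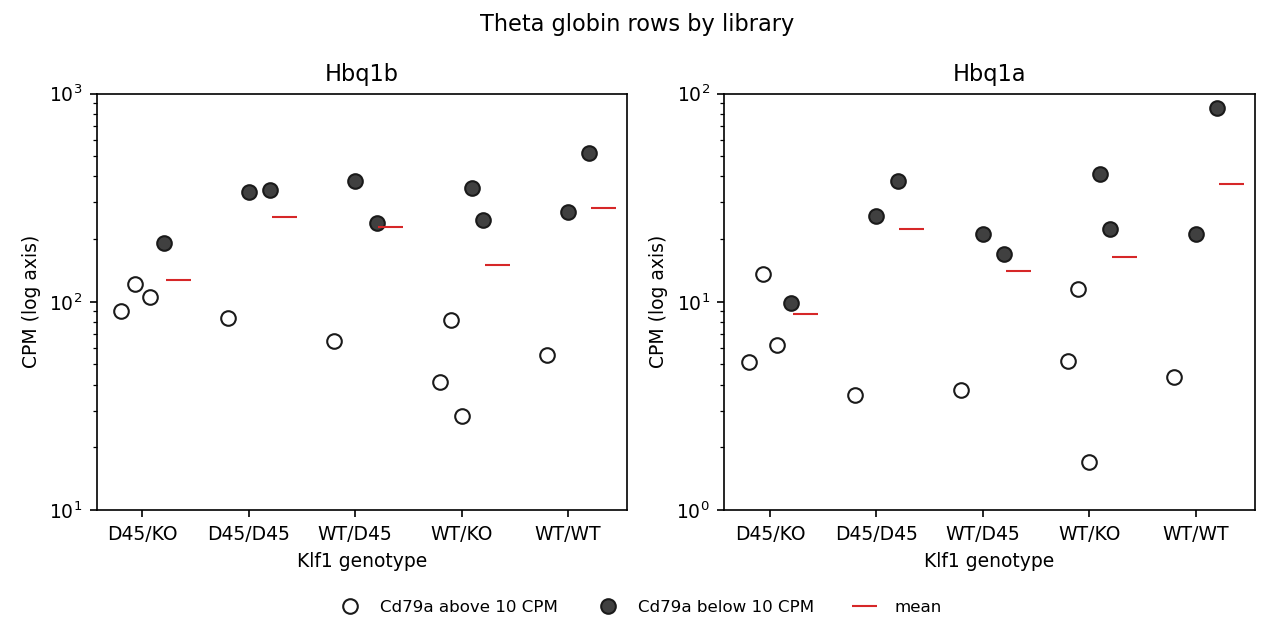
CPM on a log axis of the theta globin rows Hbq1b (left panel) and Hbq1a (right panel) by Klf1 genotype, with 1 point per library, open for Cd79a above 10 CPM and filled below, and the mean in red. Open points lie at 28.2 to 122 CPM of Hbq1b and filled points at 191 to 520 CPM.

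The ratio of Hbq1b to Hbq1a ran from 8.96 to 19.4 in D45/KO, 9.08 to 23.6 in D45/D45, 14.0 to 18 in WT/D45, 7.10 to 16.5 in WT/KO and 6.12 to 12.7 in WT/WT. The WT/D45 libraries did not overlap with those of WT/WT (log2 difference 0.71, exact permutation p = 0.1, the smallest possible, adjusted 0.257). D45/KO was 0.63 above WT/KO (exact permutation p = 0.0952, adjusted 0.257) and 0.60 above WT/WT (exact permutation p = 0.286), and the groups overlapped. Set against the beta rows, Hbq1b had 1177 ± 133 counts per 1000000 counts of the beta rows in D45/KO, 942 ± 412 in D45/D45, 980 ± 306 in WT/D45, 743 ± 200 in WT/KO and 622 ± 352 in WT/WT (SD, n = 4, 3, 3, 5 and 3). Of the 75-base stretches of their transcripts, 21.3% (Hbq1b) and 29.1% (Hbq1a) are shared between the theta pair, so the split of reads between them is uncertain.

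The genes around the globins were described as lists. Of 20 regulators of globin genes, among them Gata1, Tal1, Ldb1 and Bcl11a, a repressor of embryonic globin, 20 were tested and 0 were called in any comparison. Their median log2 fold change was 0.30 in D45/KO against WT/KO and -0.32 in D45/KO against WT/WT, beside -0.15 and 0.073 over all tested genes. Ldb1, which bridges the locus control region and the promoter, averaged 116 ± 23.2 CPM in D45/KO libraries and 76.1 ± 20.7 CPM in WT/WT libraries (log2 fold change 0.61 ± 0.24, edgeR adjusted p = 0.434). Of 20 genes of haem supply and globin assembly, 18 were tested and 0 were called, with medians of 0.14 and -0.25 in the same comparisons. Alas2, the first enzyme of haem synthesis in red cells, averaged 7851 ± 2732 CPM in D45/KO libraries and 29015 ± 27249.8 CPM in WT/WT libraries (log2 fold change -1.89 ± 1.35, edgeR adjusted p = 0.821). Slc25a37, the mitochondrial iron importer mitoferrin 1, averaged 2255 ± 762 CPM in D45/KO libraries and 7034 ± 4120 CPM in WT/WT libraries (log2 fold change -1.64 ± 0.85, edgeR adjusted p = 0.621). The 24 late erythroid genes had medians of 0.11 and -0.57 with 0 called. The 3 embryonic globins together were at 1.25 to 5.13 CPM in D45/KO and 0 to 2.68 CPM in WT/WT, and none was called. Among markers of other cells, 0 were called in the lists of B cells (13 tested), neutrophils (11), macrophages (13) and megakaryocytes (9). The summed level of 11 megakaryocyte and platelet markers ran from 429 to 817 CPM in D45/KO and 216 to 618 in D45/D45, against 47.9 to 175 in WT/D45, 60.4 to 264 in WT/KO and 38.0 to 206 in WT/WT, so that the D45/KO libraries lay above all libraries with a WT allele. Of 13 macrophage markers, 12 had a log2 fold change above 0 in D45/KO against WT/WT and 13 did against D45/D45 (medians 1.55 and 2.62), beside 4 against WT/KO. Their sum ran from 302 to 4706 CPM in D45/KO, 301 to 439 in D45/D45, 292 to 494 in WT/D45, 345 to 4477 in WT/KO and 472 to 1148 in WT/WT. The part of these cells in the globin values was not tested. Of 12 T and NK cell markers, 6 had a log2 fold change above 0 in D45/KO against WT/WT, and 1, the T cell kinase Lck, fell in that comparison, where 0.619% of all genes were called, with 8.66 ± 2.10 CPM in D45/KO libraries and 23.3 ± 5.02 CPM in WT/WT libraries (log2 fold change -1.43 ± 0.31, edgeR adjusted p = 0.0454).

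The genes whose log2 CPM over the 18 libraries was most like that of a globin row were looked up among 6058 genes with a mean of at least 10 CPM. Riok3, a kinase with a role in the maturation of mouse red cells in culture, came first for both beta rows, with a Pearson r of 0.98 for Hbb-b1 and 0.99 for Beta-s. Ccndbp1 was among the 5 most like for Hbb-b1, Beta-s and Hbq1a (r = 0.98, 0.99 and 0.96), and Alas2 was among those for Beta-s (r = 0.99). For Hbq1b the closest were Vbp1, Fbxo9 and Vopp1 (r = 0.98 each), and for Hbq1a it was Dazap2 (r = 0.98). Between the 4 globin rows r ran from 0.93 to 0.99. These are descriptions over libraries that share the Cd79a classes and depth.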

How the data were processed

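RNA-seq counts came from 18 libraries of sorted mouse spleen erythroblasts, each from a mouse with its own number. Per the submitters' processing notes, HISAT2, featureCounts, limma and the mm9 genome are named without version or role, and no source used here says whether strand was used in counting. The authors deposited counts that were not normalised, as whole numbers for each symbol. The authors' deposited table of 9918 genes adds CPM values (not used here), log2 fold changes (WT/WT against WT/KO) and p-values. Its 4 globin rows are quoted as the authors' values.

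Groups follow the genotype labels. Counts were fitted in R 4.3.3 with edgeR 4.0.16: 13405 genes passed filterByExpr, library sizes were adjusted by TMM, and a quasi-likelihood model with genotype as the only term was fitted to all 18 libraries, with Benjamini-Hochberg adjustment over all genes tested and a threshold of 0.05. The SE is the absolute log2 fold change divided by the square root of F, which is approximate. CPM uses the adjusted library sizes, so CPM of a beta row can differ from its plain share of counts, and log2 CPM uses a prior count of 2. Ratios of counts were tested by two-sided exact permutation over libraries. Correlations used 100000 permutations within each class of Cd79a, divided at 10 CPM. Shared stretches were counted in GENCODE M21 transcripts, and promoters came from RefSeq. The edgeR test was checked on simulated data. Over the 6 comparisons it recovered 0 to 4.41% of the genes changed 2-fold, 5.88 to 23.2% at 4-fold and 27 to 46.2% at 8-fold. A globin row that was not called may therefore still have changed. The rows, gene lists, class boundary and tests were chosen with earlier results of these data known. The rule for genes most like a globin row took the 5 highest Pearson correlations. Other named list genes (Ldb1, Alas2, Slc25a37 and Lck) were chosen after their values were seen. Alternatives were other scalings and filters, DESeq2 1.42.0, limma 3.58.1 with and without library weights, covariates, subsets of libraries and a replicate block.

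The replicate numbers come from the sample titles, which name no shared litter or day. Deviations from the genotype means correlated between same-numbered libraries in every pair of D45/D45 with WT/WT (0.71, 0.35 and 0.19). The same held for WT/D45 with WT/WT (0.71, 0.22 and 0.12) and for D45/KO with WT/KO (0.44, 0.63, 0.052 and 0.63). The other comparisons held pairs below 0, down to -0.44 in D45/KO with D45/D45. Whether a shared number stands for a shared litter or day is not known, so the block is given as an alternative only. Replicate 1 of every genotype has a mouse number under 200 and Cd79a above 10 CPM. The series design describes the replicates as biological.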

Additional observations from a re-analysis of the deposited data

Results flagged for a closer look

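Measures in the 2 genotypes with 4 or more libraries (D45/KO and WT/KO) were screened for a library far from the others of its genotype, by its gap to the nearest one over the whole range, and 3 of 16 groups of values stood out. Chance flags about 1 in 20 groups, and the measures are related. The ratio of Beta-s to Hbb-b1 was 2.0 in D45/KO replicate 3, against 1.31 to 1.39 in the other D45/KO libraries. The same ratio was 1.75 in WT/KO replicate 3, beside 1.07 to 1.17 in the other WT/KO libraries. Beta-s stood at 377010 CPM in WT/KO replicate 4, beside 24503 to 121148 CPM in the others, and its share of all counts there was 19.7%.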

How the results depend on the processing

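Of the alternatives that do not leave out 1 replicate, 463 kept a result's direction and its side of the threshold, 50 reversed a direction, 3 brought a result past the threshold and 1 moved a value beyond its SD. No reversed result was called in either setting, and all log2 fold changes below are from edgeR unless another tool is named. In the 9 libraries with Cd79a above 10 CPM, the log2 fold changes in D45/KO against WT/KO, D45/D45 and WT/WT were 0.26, 0.59 and 0.51 for Hbb-b1, 0.61, 0.73 and 0.96 for Beta-s, 1.12, 0.34 and 0.88 for Hbq1b and 0.48, 1.24 and 0.88 for Hbq1a. There D45/D45 against WT/WT had 0.23 for Beta-s and 0.54 for Hbq1b, WT/D45 against WT/WT 0.011 for Hbb-b1 and 0.23 for Hbq1b, and WT/KO against WT/WT 0.25 for Hbb-b1, 0.35 for Beta-s and 0.40 for Hbq1a. The interaction of Hbb-b1 was 0.25, the log2 ratio of the beta rows -0.016 in WT/D45 against WT/WT, and that of the theta rows -0.77 in D45/KO against D45/D45. In the 9 libraries below 10 CPM, Hbq1a passed the threshold in D45/KO against WT/WT (-2.40, adjusted p = 0.0461, range over its alternatives 0.0461 to 1), with 1 D45/KO library, which is assumed to vary like the other genotypes, and with 322 genes called. The beta ratio was -0.013 there in D45/KO against D45/D45, the theta ratio 0.14 in WT/KO against WT/WT, and the interaction -0.27 for Beta-s, -0.23 for Hbq1b and -0.16 for Hbq1a.

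With raw library totals Hbq1b had 0.20 in D45/KO against WT/KO, 0.26 in D45/D45 and 0.28 in WT/D45 against WT/WT, and -0.075 in the interaction. With scaling to the late erythroid genes it had 0.13 in WT/D45 against WT/WT and -0.21 in the interaction, where Beta-s had -0.015. With the B cell covariate Hbq1b had 0.18 in D45/KO against WT/KO and Hbb-b1 0.39 in the interaction. With the mouse number covariate Hbq1b had 0.54 and Beta-s 0.10 in D45/KO against WT/KO, Hbq1b 0.014 in D45/D45 against WT/WT and Hbb-b1 0.72 in the interaction. By limma-voom Hbq1b had 0.23 in D45/KO against WT/KO and Hbb-b1 0.22 in the interaction. By limma-voom with library weights Hbq1b had 0.83, Hbq1a 0.068 and Beta-s 0.29 in D45/KO against WT/KO and Hbb-b1 1.41 in the interaction. With these weights Hbb-b1 passed the threshold in D45/KO against WT/WT (-3.40, adjusted p = 0.0314, range over its alternatives 0.0314 to 1) and Hbq1b in WT/KO against WT/WT (-2.62, adjusted p = 0.0271, range 0.0271 to 0.998). Without the 2 shallowest libraries (D45/KO replicate 3 and WT/KO replicate 3), an alternative chosen after seeing the data, the beta ratio was -0.035 in D45/KO against D45/D45 and 0.29 in D45/KO against WT/KO (exact permutation p = 0.0571), and the interaction of Hbq1b was -0.038. The mean globin count per 100 other counts was 53.7 in WT/WT. The cause of these differences was not tested.

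With the replicate block Hbq1b had 0.63 in D45/KO against WT/KO and Hbb-b1 0.81 in the interaction, and the block changed no call of a globin row. Hbb-b1 had -1.08 (D45/D45 against WT/WT), -1.17 (WT/D45 against WT/WT) and -0.36 (D45/KO against WT/KO) with the block. What the shared numbers stand for is not known. In D45/KO against WT/KO the same-numbered libraries correlated at 0.052 to 0.63, and 128 genes were called with the block, beside 23 without.

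Leaving out 1 library at a time, the log2 ratio of the beta rows ran from 0.16 to 0.43 in D45/KO against WT/KO, with an exact permutation p of 0.0286 only without WT/KO replicate 3, from -0.035 to 0.17 in D45/KO against D45/D45, and from -0.0091 to 0.10 in WT/D45 against WT/WT. That of the theta rows ran from 0.51 to 0.88 in D45/KO against WT/KO (exact permutation p = 0.0357 without D45/KO replicate 2), from -0.22 to 0.47 in D45/KO against D45/D45 and from -0.38 to 0.14 in WT/KO against WT/WT. The p of 0.0286 and that of 0.0357 are each the smallest possible, reached once the library that made the groups overlap is left out. In D45/KO against WT/KO, Hbq1b ran from -0.51 to 0.35 and Beta-s from -1.20 to 0.12. In D45/KO against WT/WT, Hbb-b1 ran from -3.43 to -1.92 and Hbq1a from -2.60 to -0.55, the ends being without WT/WT replicate 1 and without WT/WT replicate 3. In D45/D45 against WT/WT, Hbq1b ran from -0.63 to 0.65, Hbq1a from -1.33 to 0.82 and Beta-s from -1.29 to 0.24. In WT/D45 against WT/WT, Hbq1b ran from -0.89 to 0.49 and Hbq1a from -1.92 to 0.13, and in WT/KO against WT/WT Hbq1a ran from -1.85 to 0.36. The interaction ran from -0.73 to 0.65 for Hbq1b, -1.04 to 1.16 for Hbq1a, -1.07 to 1.08 for Hbb-b1 and -0.72 to 1.27 for Beta-s.

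Genes called over the whole table in D45/KO against WT/KO were 23 by edgeR, 185 by DESeq2, 67 by limma-voom and 2394 with library weights, and in D45/KO against WT/WT 83, 406, 75 and 717. By edgeR the SE of Hbb-b1 was 3.00 to 3.58 and that of Beta-s 3.16 to 3.82 over the 6 comparisons. The 2 shallowest libraries held 9.36 and 10.5 M counts.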
